A study of Danio rerio with 22 samples.

Results

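The transcriptome of W-hybrid germ cells was compared between 14 and 12 days postfertilization (dpf) across all genes, in the 4 libraries of these cells made by Quartz-seq, 2 at each age, out of 22 libraries in the series. The choice followed the hybrid, the age and the library method in the labels. W-hybrids were larvae of Nadia WW females crossed with Tg(ziwi:GFP) fish in the Tupfel long-fin background, so that all of them carried the W locus of the Nadia strain and are the presumptive females. Larvae that inherited the transgene had fluorescent germ cells. The ziwi promoter, that of piwil1, drove GFP in germ cells, and the GFP+ cells of pooled dissected gonads were sorted for bulk RNA-seq, with no other treatment. The other libraries used here are the Z-hybrid germ cells, from Nadia ZZ fish crossed with the same transgenic fish (Quartz-seq, 1 library at each of 12 and 14 dpf), an earlier age step of the W-hybrid by Smart-seq (3 libraries at 10 dpf and 4 at 12 dpf), and trunk cells at 10 dpf as a negative control (Smart-seq, 2 libraries). Each library is a batch of pooled larvae, so the p-values measure the spread between batches.

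Germ cells that enter meiosis copy their DNA, cut and repair it by recombination, and hold paired chromosomes together with the synaptonemal complex, a protein ladder built on the chromosome axis. In a zebrafish ovary, cells that have begun meiosis then become oocytes, which start to make the egg coat, the Balbiani body and maternal RNA-binding proteins. The zebrafish gonad first passes through an ovary-like stage, and early meiosis and oocyte growth are among its first female features.

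The question was which transcripts of presumptive female germ cells change over these 2 days of age. The expected counts summed to between 25610705 and 37224647 per W-hybrid library, and 18966 to 20378 genes had at least 10 counts. DDX4 (Vasa), a germ cell RNA helicase, lay between 4166 and 5023 TPM (a transcript level scaled for gene length and depth) in the 4 libraries, and averaged 0.045 TPM in trunk cells. PIWIL1, whose promoter marked the sorted cells, lay between 6414 and 7300 TPM. The libraries most alike were 12-dpf replicate 2 and 14-dpf replicate 2 (median absolute log2 difference 0.394, over 23154 genes), and the 2 libraries of one age differed by 0.565 at 12 dpf and 0.548 at 14 dpf. The 12-dpf replicate 2 stood apart in muscle transcripts. In bulk samples, fewer cells of a type and less RNA per cell cannot be told apart.

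Of 23154 genes tested, 3 rose and 0 fell from 12 to 14 dpf in edgeR's quasi-likelihood test after Benjamini-Hochberg adjustment (0.013% and 0% of the genes). Calls needed an adjusted p under 0.05, a change of 1.5-fold or more and over 5 TPM on average at the higher age. At an unadjusted p under 0.05, 566 genes were higher and 471 lower at 14 dpf, which is 2.44% and 2.03% of the genes. Together these are 1037 genes, or 4.48%, no more than a threshold of 0.05 would pass with no change in any gene. Both 14-dpf libraries lay above both 12-dpf libraries for 3755 genes (16.2%) and below them for 3806 (16.4%). The largest changes and many of the list members named below were picked among such genes. That their ages do not overlap follows from the choice. Over all genes the median log2 fold change was -0.01. DESeq2 called 45 higher and 16 lower genes, and the 3 genes above were among them. Leaving out 1 library at a time moved the counts to 21 higher and 28 lower without 12-dpf replicate 1, 6 and 5 without 12-dpf replicate 2, 24 and 12 without 14-dpf replicate 1, and 20 and 17 without 14-dpf replicate 2. The 3 genes stayed called in each of these 4 fits, but not in every fit. In edgeR's quasi-likelihood test larp6b had an adjusted p of 0.182 over all 20 germ cell libraries, zpax2 and zgc:162592 had 0.0534 with library size alone, and zpax2 had 0.0517 with the W-hybrid libraries alone.

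**Figure D1:**
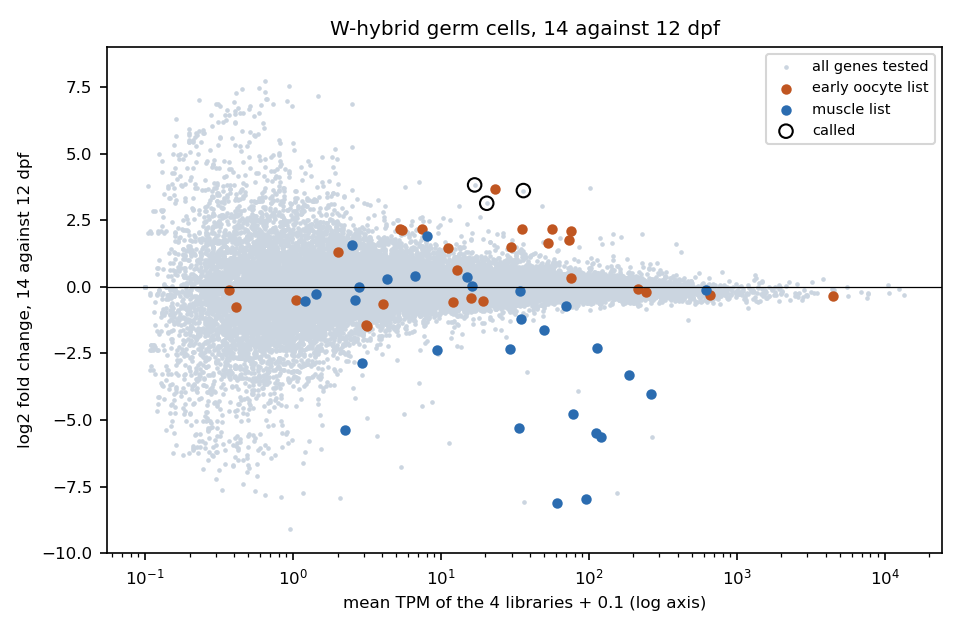
Log2 fold change at 14 against 12 dpf (vertical axis) by mean TPM of the 4 libraries plus 0.1 (horizontal log axis) for the 23154 genes tested, with the early oocyte list in orange, the muscle list in blue and the 3 called genes circled. The called genes lie at log2 fold changes between 3.14 and 3.83, and the largest falls among well expressed genes include many of the muscle list.

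The 3 genes that rose were larp6b, zpax2 and zgc:162592, and all 3 were at 0 TPM in both trunk libraries. The gene larp6b (ENSDARG00000003968) belongs to the La-related family of RNA-binding proteins. It measured 5.81 and 4.46 TPM at 12 dpf and 63.87 and 69.76 TPM at 14 dpf, or 5.14 ± 0.955 against 66.8 ± 4.16 TPM (SD, n = 2 at each age). The log2 fold change was 3.61 ± 0.42 (SE), with an adjusted p of 0.0297 in edgeR's quasi-likelihood test. The 2 ages were far apart, and the libraries of 1 age were close to each other.

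The gene zpax2 (ENSDARG00000017188) is a zona pellucida gene, one of those that code for proteins of the egg coat. It measured 4.14 and 2.79 TPM at 12 dpf and 31.28 and 42.95 TPM at 14 dpf, a log2 fold change of 3.14 ± 0.41 (SE, adjusted p = 0.0351 in edgeR's quasi-likelihood test). The gene zgc:162592 (ENSDARG00000101787) has no name of known function in the tables used. It measured 1.82 and 2.38 TPM at 12 dpf and 30.12 and 32.84 TPM at 14 dpf, a log2 fold change of 3.83 ± 0.48 (SE, adjusted p = 0.0344 in the same test). Neither gene overlapped between the ages.

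Another egg-coat gene, zpax1 (ENSDARG00000069251), was just outside the threshold, with an adjusted p of 0.0508 in edgeR's quasi-likelihood test. It measured 23.93 and 6.81 TPM at 12 dpf and 144.24 and 231.88 TPM at 14 dpf (log2 fold change 3.72 ± 0.52, SE). The 12-dpf libraries differed from each other more than those of the called genes did, and the ages did not overlap. Since 2 zpax genes stood out, all genes with a zona pellucida symbol were then counted, a choice made after their values were seen. Of 21 tested, 12 had a log2 fold change above 0, beside 49.1% of all genes, and 7 were higher and 0 lower at an unadjusted p under 0.05. In the whole gene set, 2.44% were higher at that p. The 7 include zpax1 and zpax2, which prompted the count. A mean over 5 TPM at either age was reached by 11 of the 21. The gene zp3b measured 17.55 and 13.01 TPM at 12 dpf and 50.03 and 38.19 TPM at 14 dpf. Others did not follow it, as zp3 measured 4.38 and 4.99 TPM at 12 dpf and 3.21 and 3.23 TPM at 14 dpf.

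Some of the other large rises in level, none of them called by edgeR, were in genes near 0 at 12 dpf. PHYHIPL (ENSDARG00000070498) measured 1.22 and 0.54 TPM at 12 dpf and 11.66 and 9.18 TPM at 14 dpf. KCNJ13, a potassium channel, measured 0.42 and 0.28 TPM at 12 dpf and 5.56 and 10.10 TPM at 14 dpf. SLC28A2, a nucleoside transporter, measured 0.96 and 0.37 TPM at 12 dpf and 8.06 and 5.29 TPM at 14 dpf, and in all 3 the ages did not overlap. Not every large rise began near 0, as ovch1 measured 13.71 and 5.50 TPM at 12 dpf and 83.36 and 89.26 TPM at 14 dpf. Its log2 fold change was 3.02, with an adjusted p of 0.0525 in edgeR's quasi-likelihood test.

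**Figure D2:**
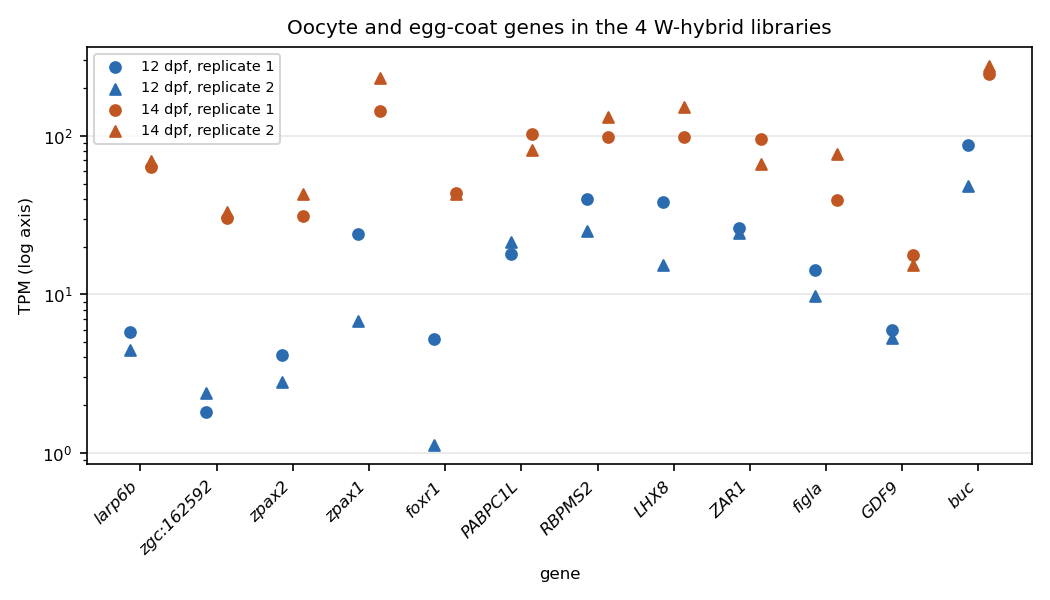
TPM on a log axis (vertical) of 12 called, egg-coat or oocyte genes (horizontal) in each W-hybrid library. Blue is 12 dpf and orange 14 dpf, with circles for replicate 1 and triangles for replicate 2. The genes larp6b and zgc:162592 are drawn as called genes, not as known oocyte genes. In all 12 genes both 14-dpf libraries lie above both 12-dpf libraries, and the gap is widest in larp6b and zgc:162592. The genes were picked among those that rose, so the shared direction follows from the choice. Oocyte list members that were level or lower are not drawn.

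Among 27 early oocyte genes tested, 10 were higher and 0 lower at an unadjusted p under 0.05, or 37.0% against 2.44% of all genes higher. None was called by edgeR, and DESeq2 called 6 higher. The list median was 0.34 in log2 fold change, against -0.01 for all genes, and the list was split. In 12 members (44.4%, against 16.2% of all genes) the 14-dpf libraries lay above the 12-dpf libraries, and in 8 (29.6%, against 16.4%) they lay below.

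The higher members included transcription factors of early oocytes. The forkhead gene foxr1 measured 5.25 and 1.12 TPM at 12 dpf and 43.48 and 43.16 TPM at 14 dpf, a log2 fold change of 3.69 ± 0.72 (SE). LHX8, a homeobox gene needed for early oocytes in mice, measured 38.29 and 15.40 TPM at 12 dpf and 98.85 and 151.56 TPM at 14 dpf. The gene figla, whose mouse counterpart switches on zona pellucida genes, measured 14.23 and 9.81 TPM at 12 dpf and 39.65 and 77.28 TPM at 14 dpf. In all 3 the ages did not overlap, and the adjusted p in edgeR's quasi-likelihood test was 0.241, 0.314 and 0.462.

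Other members of the list code for RNA-binding proteins, and not all of them were higher, as YBX1 below shows. PABPC1L, the poly(A)-binding protein of oocytes, measured 18.05 and 21.30 TPM at 12 dpf and 102.36 and 81.85 TPM at 14 dpf, with a log2 fold change of 2.19 ± 0.33 (SE, adjusted p = 0.0584 in edgeR's quasi-likelihood test). The gene listed as RBPMS2 (ENSDARG00000079578), one of a pair that zebrafish oocytes need, measured 39.92 and 25.00 TPM at 12 dpf and 98.14 and 131.37 TPM at 14 dpf. Its partner (ENSDARG00000045930) measured 10.42 and 7.32 TPM at 12 dpf and 16.31 and 16.89 TPM at 14 dpf. ZAR1, a maternal RNA-binding factor, measured 26.33 and 24.41 TPM at 12 dpf and 95.47 and 66.00 TPM at 14 dpf. All 4 had 14-dpf libraries above the 12-dpf libraries.

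The gene buc, which organizes the Balbiani body of the zebrafish oocyte, measured 87.72 and 48.44 TPM at 12 dpf and 243.90 and 276.00 TPM at 14 dpf. Its log2 fold change was 1.86 ± 0.32 (SE), with an adjusted p of 0.134 in edgeR's quasi-likelihood test. GDF9, a growth factor secreted by oocytes, measured 5.95 and 5.34 TPM at 12 dpf and 17.64 and 15.21 TPM at 14 dpf. The related factor bmp15 went the other way in level, between 17.48 and 18.22 TPM at 12 dpf and no lower than 12.88 TPM at 14 dpf (unadjusted p = 0.286).

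Among the members that were level or lower were genes already abundant at 12 dpf. The gene foxl2l, a forkhead factor of zebrafish oocyte progenitors, measured 4749 and 4928 TPM at 12 dpf and 4462 and 3771 TPM at 14 dpf (unadjusted p = 0.215). YBX1 and WEE2 were likewise between 568.06 and 727.10 TPM and between 208.70 and 256.71 TPM in the 4 libraries. The summed level of the list was mostly that of foxl2l and did not follow the higher members, at 6222 and 6396 TPM at 12 dpf and 6266 and 5596 TPM at 14 dpf.

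Of 65 meiosis genes tested over 5 role lists, 15 were higher and 0 lower at an unadjusted p under 0.05 (23.1%, against 2.44% of all genes higher). None was called by edgeR, and DESeq2 called 4 higher. The oocyte and meiosis lists were chosen with earlier results of these data known, so their counts are a description. In all, 44 of the 65 had a log2 fold change above 0, the median was 0.19, and 20 had groups that did not overlap in the higher direction (30.8%, against 16.2% of all genes) and 4 in the lower (6.15%, against 16.4%). Without 14-dpf replicate 2 the 15 fell to 8, and without the other libraries the count lay between 11 and 18.

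**Figure D3:**
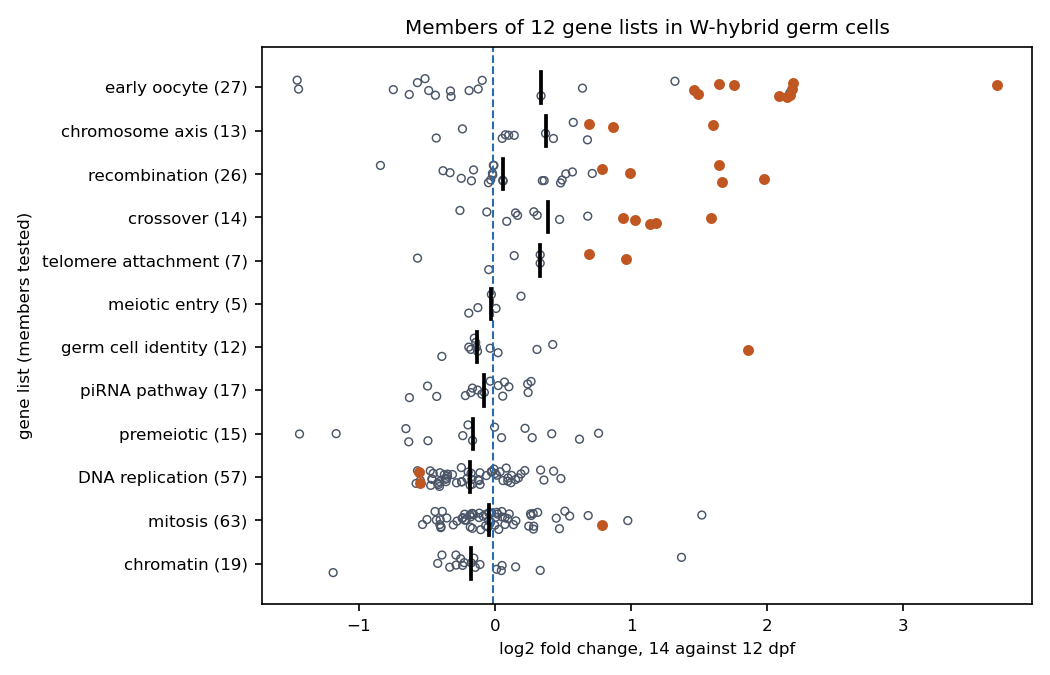
Log2 fold change at 14 against 12 dpf (horizontal axis) of every tested member of 12 gene lists (vertical axis, number tested in brackets), with members at an unadjusted p under 0.05 in filled orange, list medians as black bars and the median of all genes as a dashed line. The filled points lie in the oocyte, axis, recombination, crossover and telomere lists on the higher side, with 1 in each of the identity and mitosis lists, and 2 on the lower side in DNA replication.

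For the chromosome axis and synaptonemal complex, 3 of 13 members were higher at an unadjusted p under 0.05 (23.1%, against 2.44% of all genes). The median was 0.37. SYCP1, the transverse filament that zips the paired chromosomes, measured 228.96 and 137.91 TPM at 12 dpf and 542.42 and 640.46 TPM at 14 dpf, a log2 fold change of 1.61 ± 0.29 (SE, adjusted p = 0.241 in edgeR's quasi-likelihood test). SYCP3, of the lateral element, measured 148.37 and 199.62 TPM at 12 dpf and 259.43 and 421.50 TPM at 14 dpf (log2 fold change 0.87, unadjusted p = 0.0117). The ages did not overlap in either gene. The meiotic cohesin rad21l1 had a log2 fold change of 0.69, and both 14-dpf libraries were above both 12-dpf libraries. Other axis genes were near their 12-dpf level, as HORMAD1 measured 440.29 and 453.41 TPM at 12 dpf and 395.15 and 625.94 TPM at 14 dpf. The cohesin subunit rec8a was lower in level, with 405.80 and 374.30 TPM at 12 dpf and 270.44 and 345.51 TPM at 14 dpf (unadjusted p = 0.114).

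In recombination, 5 of 26 members were higher at an unadjusted p under 0.05 (19.2%, against 2.44% of all genes). All 5 act in break formation or in meiotic strand exchange. The list as a whole was split, with 14 members above 0 and 12 below, and its median was 0.06. MEIOB, which coats single-stranded DNA during meiotic repair, measured 119.40 and 61.03 TPM at 12 dpf and 227.25 and 504.23 TPM at 14 dpf, a log2 fold change of 1.97 ± 0.37 (SE, adjusted p = 0.241 in edgeR's quasi-likelihood test). The strand exchange enzyme DMC1 measured 72.93 and 59.58 TPM at 12 dpf and 143.84 and 300.64 TPM at 14 dpf. The gene spo11, which makes the meiotic breaks, measured 24.01 and 20.78 TPM at 12 dpf and 64.90 and 86.19 TPM at 14 dpf. In these 3 genes the ages did not overlap, and 14-dpf replicate 2 was the highest library in each. The other 2 were spata22, the partner of MEIOB, and MND1, a helper of DMC1.

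Several repair genes that mitotic cells use as well were near their 12-dpf level. The log2 fold changes of ATM, MRE11, RAD50 and nbn lay between -0.38 and -0.03, and none of them had an unadjusted p under 0.05.

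In crossover formation, 5 of 14 members were higher at an unadjusted p under 0.05 (35.7%, against 2.44% of all genes). Of the 14, 12 were above 0, and the median was 0.39. MSH4 and MSH5 form a pair that stabilizes crossover intermediates. MSH4 measured 94.56 and 25.13 TPM at 12 dpf and 203.09 and 168.46 TPM at 14 dpf, and MSH5 measured 126.79 and 48.00 TPM at 12 dpf and 196.42 and 214.44 TPM at 14 dpf. In both, 12-dpf replicate 2 was well below replicate 1, and the ages did not overlap. TEX11, CCNB1IP1 and rnf212b, further crossover factors, had log2 fold changes of 0.94, 1.03 and 1.18.

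In telomere attachment to the nuclear envelope, 2 of 7 members were higher at an unadjusted p under 0.05 (28.6%, against 2.44% of all genes). SPDYA, an activator of CDK2 at telomeres, measured 214.19 and 159.53 TPM at 12 dpf and 281.83 and 363.80 TPM at 14 dpf. The gene terb2, part of the telomere tether, measured 18.41 and 21.54 TPM at 12 dpf and 31.14 and 51.94 TPM at 14 dpf. CDK2 itself had a log2 fold change of 0.14. None of the 5 genes of meiotic entry passed an unadjusted p under 0.05, and DAZL, a germ cell RNA-binding protein, measured 1754 and 1490 TPM at 12 dpf and 1752 and 1255 TPM at 14 dpf.

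The 16 genes that the study followed include established markers such as DDX4, PIWIL1 and PCNA, and meiotic genes. The paper turned to meiotic genes after its 14-dpf comparison of the hybrids, which used the same 14-dpf W-hybrid libraries. The counts of the 16 are therefore a description. Of the 16, 5 were higher at an unadjusted p under 0.05 (31.25%, against 2.44% of all genes), and none was called. The 5 were MEIOB, DMC1, SYCP3, terb2 and tsga10. The gene tsga10 measured 51.95 and 32.01 TPM at 12 dpf and 74.85 and 75.04 TPM at 14 dpf. Of the others, PCNA, the sliding clamp of DNA replication, was at a log2 fold change of -0.17, and rec8b, a meiotic cohesin, at 0.43.

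Genes of germ cell identity were level, apart from buc. Of 12 tested, 1 was higher (8.33%, beside 2.44% of all genes) and 0 lower at an unadjusted p under 0.05, and the median was -0.13. None of 17 genes of the piRNA pathway, which silences transposons in germ cells, passed an unadjusted p under 0.05. TDRD1, a scaffold of that pathway, measured 3726 and 2609 TPM at 12 dpf and 2729 and 2014 TPM at 14 dpf. None of 15 genes of premeiotic germ cells passed it either, and nanos2, a marker of germline stem cells, measured 47.77 and 92.21 TPM at 12 dpf and 37.33 and 72.63 TPM at 14 dpf, where the libraries with the same replicate number were closer than those of the same age.

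In DNA replication, 0 of 57 members were higher and 2 lower at an unadjusted p under 0.05 (3.51%, beside 2.03% of all genes lower). The median was -0.18. The 2 were MCM3, a subunit of the replicative helicase, with 1384 and 1315 TPM at 12 dpf and 957.78 and 987.40 TPM at 14 dpf, and CDC6, which loads that helicase, with 650.25 and 558.43 TPM at 12 dpf and 436.51 and 439.70 TPM at 14 dpf. For 21 members (36.8%) both 14-dpf libraries lay below both 12-dpf libraries, beside 16.4% of all genes. These included MCM2 and the more abundant of 2 genes listed as MCM6 (ENSDARG00000057683), at log2 fold changes of -0.46 and -0.47, whereas the other MCM6 (ENSDARG00000033231) was at 0.34. The summed level of the list was 19631 and 18172 TPM at 12 dpf and 16676 and 15835 TPM at 14 dpf. Of 63 mitosis genes, 1 was higher at an unadjusted p under 0.05 (1.59%, beside 2.44% of all genes), and 0 were lower. The 1 was hmmr, a spindle-binding gene. Both 14-dpf libraries lay above both 12-dpf libraries for 8 of them (12.7%, beside 16.2%) and below for 13 (20.6%, beside 16.4%).

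Ribosomal protein genes showed the most uniform pattern among the lists. Of 95 tested, 6 had a log2 fold change above 0 and the median was -0.32, yet only 2 had an unadjusted p under 0.05. For 48 of them (50.5%) both 14-dpf libraries lay below both 12-dpf libraries, beside 16.4% of all genes. RPL15, of the large subunit, measured 1534 and 1414 TPM at 12 dpf and 904.26 and 937.19 TPM at 14 dpf. The summed level of the list was 78667 and 75012 TPM at 12 dpf and 71024 and 64249 TPM at 14 dpf. With library size alone in place of trimmed-mean scaling the median was -0.24, and the median of all genes 0.08. Without 14-dpf replicate 1, 15 were lower at an unadjusted p under 0.05, and without 12-dpf replicate 2, 6 were.

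Retinoic acid genes, which are linked to meiotic entry in mammals, gave 4 higher and 0 lower of 19 tested at an unadjusted p under 0.05. The 4 are 21.1% of those tested, beside 2.44% of all genes. STRA6, a retinol transporter, measured 41.42 and 28.55 TPM at 12 dpf and 58.66 and 72.50 TPM at 14 dpf. Of the 4, CYP26A1, which degrades retinoic acid, rested on 1 library, with 1.21 and 2.61 TPM at 12 dpf and 17.50 and 3.33 TPM at 14 dpf. The count was 2 or fewer without any 1 library. In the checkpoint list, mdm2, a ubiquitin ligase, measured 185.20 and 137.28 TPM at 12 dpf and 301.32 and 291.98 TPM at 14 dpf. It was the 1 member of 25 with an unadjusted p under 0.05 (4.0%, beside 2.44% of all genes higher).

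Among 22 genes of cilia, 16 had a log2 fold change above 0 and the median was 0.30, but only FOXJ1, a regulator of motile cilia at no more than 3.36 TPM, had an unadjusted p under 0.05. For 10 of the 22 both 14-dpf libraries lay above both 12-dpf libraries, beside 16.2% of all genes. None of 19 chromatin genes and none of 38 stress genes passed an unadjusted p under 0.05, with medians of -0.17 and 0.07. Both 14-dpf libraries lay below both 12-dpf libraries for 8 chromatin genes (42.1%) and 11 stress genes (28.9%), beside 16.4% of all genes. They lay above them for 0 chromatin genes and 6 stress genes (15.8%), beside 16.2% of all genes.

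The genes with the largest falls in level were mostly muscle genes that were high in 12-dpf replicate 2, and none of them was called. MYL11, a myosin light chain, measured 42.80 and 574.39 TPM at 12 dpf and 2.19 and 1.02 TPM at 14 dpf. The muscle actin actc1b measured 68.08 and 973.60 TPM at 12 dpf and 9.83 and 12.13 TPM at 14 dpf. The gene pvalb1 (parvalbumin, a calcium buffer of fast muscle) measured 22.36 and 356.78 TPM at 12 dpf and 1.45 and 0.26 TPM at 14 dpf. In each gene 12-dpf replicate 1 lay between replicate 2 and the 14-dpf libraries. Closest to the threshold was nme2b.2, a nucleoside diphosphate kinase outside the muscle list, with an adjusted p of 0.0525 in edgeR's quasi-likelihood test. It measured 13.43 and 131.59 TPM at 12 dpf and 0.10 and 0.44 TPM at 14 dpf. The 2 trunk libraries held 272.15 and 2.73 TPM of it.

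Over the whole muscle list, 13 of 28 members (46.4%) were lower at an unadjusted p under 0.05, beside 2.03% of all genes. In the higher direction it was 1 member (3.57%, beside 2.44%), and the median log2 fold change was -1.40. The summed level was 1191 and 4736 TPM at 12 dpf and 1037 and 938 TPM at 14 dpf, while it was 6172 and 298 TPM in the trunk libraries, and Smart-seq W-hybrid libraries lay between 404.60 and 652.48 TPM. The glycolytic enzyme ENO3 held between 566.33 and 670.25 TPM of that sum in each of the 4 libraries. The myogenic factors MYOD1 and MYOG were at most 6.54 and 22.71 TPM, the latter in 14-dpf replicate 1. Without 12-dpf replicate 2 the median was -0.20 and 9 members were lower at an unadjusted p under 0.05. Without 14-dpf replicate 1 or 2 it was 6 or 8. Of the 16 genes that DESeq2 called lower, 4 were on the muscle list, which does not hold MYL11 or actc1b. The part of muscle cells in these falls was not tested.

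**Figure D4:**
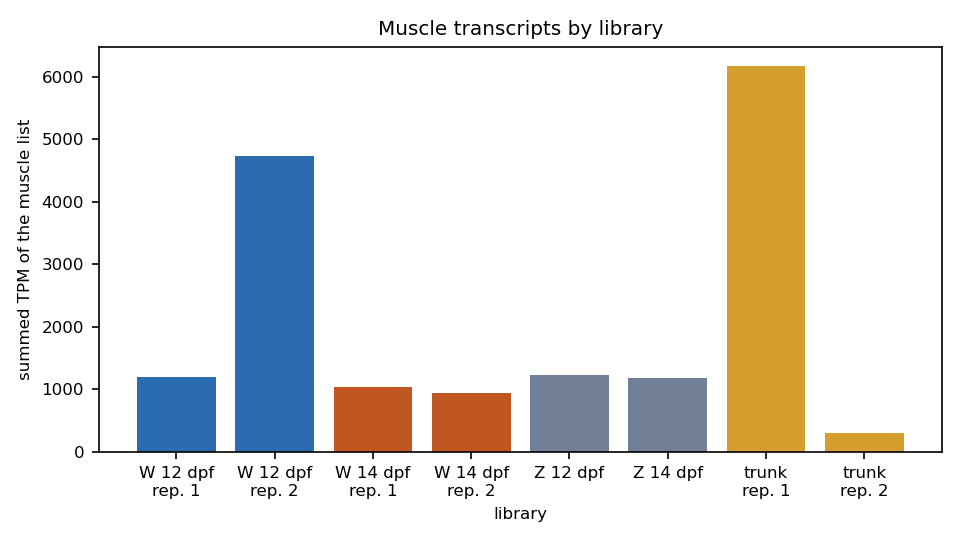
Summed TPM of the 28 muscle genes (vertical axis) in each Quartz-seq germ cell library and both trunk libraries (horizontal axis), with W-hybrid libraries in blue at 12 dpf and orange at 14 dpf, Z-hybrid libraries in grey and trunk in yellow. The bar of W-hybrid 12-dpf replicate 2 stands at 4736 TPM, and the other 3 W-hybrid bars lie between 938 and 1191 TPM.

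The summed levels of blood, epidermis and gonadal somatic markers were far below those in trunk cells at both ages. The trunk libraries were made by Smart-seq and the 4 W-hybrid libraries by Quartz-seq, so comparisons with trunk cells mix library methods. In the Smart-seq W-hybrid libraries these 3 sums were also far below trunk cells. They reached at most 66.13 TPM for blood, 137.6 TPM for epidermis and 70.09 TPM for gonadal somatic markers. The summed level of the blood list lay between 135 and 140 TPM in the 4 libraries, against 4345 and 8187 TPM in trunk cells. That sum does not show its members, of which 8 of 11 tested had a log2 fold change above 0 (median 0.67). Of the 11, 2 were higher (18.2%, beside 2.44% of all genes) and 0 lower at an unadjusted p under 0.05. Both 14-dpf libraries lay above both 12-dpf libraries for 5 (45.5%, beside 16.2%) and below them for 2 (18.2%, beside 16.4%). The median member held at most 3.18 TPM in the 4 libraries. The epidermis list summed to between 241 and 353 TPM, most of it cdh1, against 21497 and 53212 TPM. The gonadal somatic list summed to between 108 and 151 TPM, against 2510 and 5854 TPM. Its median member went the other way, between 1.245 and 1.435 TPM in the 4 libraries against 0.06 and 0.00 TPM in trunk cells. The sum therefore does not speak for most of this list. Of its 22 members tested, 11 had a log2 fold change above 0. Groups did not overlap in the higher direction for 4 (18.2%, beside 16.2% of all genes) and in the lower for 2 (9.09%, beside 16.4%). Of its defining genes, the 2 listed as FOXL2 did not exceed 5.34 TPM, amh did not exceed 1.40 TPM, and gsdf measured 4.53 and 1.21 TPM at 12 dpf and 0.00 and 0.15 TPM at 14 dpf. The hormone receptor gene lhcgr went the other way in level, with no more than 1.75 TPM at 12 dpf and 11.99 and 3.58 TPM at 14 dpf (unadjusted p = 0.00836). The kidney list summed to between 190 and 293 TPM, most of it SLC20A1, against 80.8 and 81.5 TPM in trunk cells. That direction depended on the library method. In the Smart-seq W-hybrid libraries the kidney list lay between 25.97 and 54.19 TPM, below both trunk libraries. The neural list summed to between 78.4 and 142 TPM, most of it 1 gene listed as STMN2, against 3.63 and 1.69 TPM in trunk cells. By Smart-seq the neural list was also above trunk cells, between 42.48 and 76.88 TPM. Of 11 neural members, 2 had a log2 fold change above 0, and the median was -0.75. The lists of gut, kidney and neural markers had at most 2 members with an unadjusted p under 0.05 in any direction. Of the 566 genes higher at an unadjusted p under 0.05, 52.3% were under 1 TPM in both trunk libraries, beside 36.0% of all genes tested.

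The earlier step, 12 against 10 dpf, was measured by Smart-seq in 7 libraries that the comparison above does not use. In that step, 6.64% of 20474 genes tested were higher and 6.42% lower at an unadjusted p under 0.05. Of the 566 genes higher at 14 dpf, 505 were tested there, and 368 (72.9%) had a log2 fold change above 0, beside 52.0% of all genes measured in both, while 120 (23.8%) were higher at an unadjusted p under 0.05, beside 6.71%. Of the genes lower at 14 dpf, 353 were tested, and 60.9% were above 0 in the earlier step.

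The called genes did not share 1 course over the 3 ages. By Smart-seq, larp6b lay between 0.48 and 1.03 TPM at 10 dpf and between 3.99 and 12.11 TPM at 12 dpf (log2 fold change 3.18, adjusted p = 0.00737 in edgeR's quasi-likelihood test). The gene zpax2 lay between 0.77 and 0.92 TPM at 10 dpf and between 1.87 and 3.61 TPM at 12 dpf (log2 fold change 1.57, adjusted p = 0.0743 in the same test). The gene zgc:162592 lay between 3.39 and 5.06 TPM at 10 dpf and between 2.78 and 7.75 TPM at 12 dpf, with overlapping ranges.

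No member of the meiosis, oocyte or ribosomal lists passed an adjusted p under 0.05 in the test of the difference between the steps, so the values of both steps are given side by side. Of 64 meiosis genes measured in both, 21 were higher and 0 lower at an unadjusted p under 0.05 from 10 to 12 dpf. Of all genes measured in both, 6.71% were higher at that p in the earlier step, whereas 2.44% of all genes tested were in the later. Counts of the 2 steps therefore do not compare directly. SYCP3 had a log2 fold change of 1.37 in the earlier step and 0.87 in the later, whereas SYCP1 had 0.36 and 1.61. The gene spo11 was at -0.29 in the earlier step and 1.67 in the later, and rec8a was at 2.67 and -0.43. Of 27 oocyte genes, 8 were higher and 0 lower at an unadjusted p under 0.05 in the earlier step, beside the same 6.71% higher. LHX8, figla and foxr1 were at log2 fold changes of 1.88, 3.39 and 3.54 in that step, while PABPC1L, ZAR1, GDF9 and buc were at 0.14, 0.26, 0.16 and 0.02. Ribosomal protein genes had a median of 0.23 in the earlier step and -0.32 in the later.

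**Figure D5:**
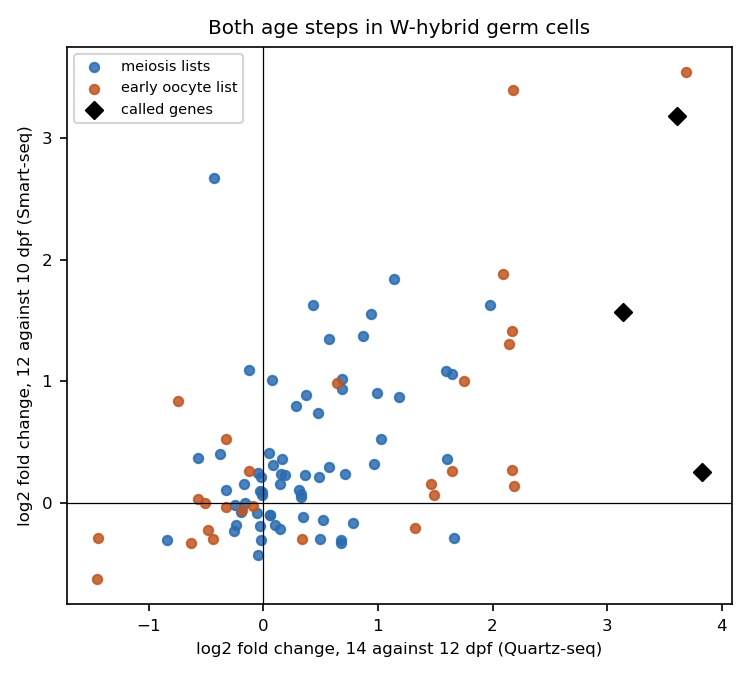
Log2 fold change from 10 to 12 dpf by Smart-seq (vertical axis) against that from 12 to 14 dpf by Quartz-seq (horizontal axis) for the genes of the meiosis lists (blue), the early oocyte list (orange) and the 3 called genes (black diamonds). Genes such as SYCP3, LHX8 and foxr1 lie above 0 in both, zgc:162592 lies at 3.83 in the later and 0.25 in the earlier step, and rec8a lies at the upper left.

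The difference between the steps was tested in a fit of all 20 germ cell libraries, and passed an adjusted p under 0.05 in 24 of 24453 genes (0.0981%). Among the called genes it was zgc:162592, with a difference of 3.56 in log2 fold change (adjusted p = 0.0183 in edgeR's quasi-likelihood test), against 0.42 for larp6b (adjusted p = 0.948) and 1.56 for zpax2 (adjusted p = 0.474). Another 6 of the 24 were on the muscle list. The later step, by which the called genes were picked, is part of the difference tested, so their p-values here depend on that choice. The age step and the library method differ together here, and cannot be told apart.

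In Z-hybrid germ cells, the 3 called genes were lower in level at 14 than at 12 dpf. The gene larp6b measured 8.98 TPM at 12 dpf and 1.34 TPM at 14 dpf, zpax2 measured 15.50 and 2.03 TPM, and zgc:162592 measured 6.32 and 1.27 TPM, in 1 library at each age. The difference between the hybrids in the change with age was 6.35, 5.61 and 5.79 on the log2 scale, with adjusted p of 0.00105, 0.00143 and 0.00223 in edgeR's quasi-likelihood test, in which the spread comes from the W-hybrid batches. Such a difference passed an adjusted p under 0.05 in 2830 genes (12.2%), and 956 of these had the higher log2 fold change in the W-hybrid. The 3 called genes were picked for their change in the W-hybrid, which is part of the difference tested. Their small p-values therefore follow in part from that choice. The Z-hybrid libraries summed to 13828829 expected counts at 12 dpf and 30748551 at 14 dpf. In them 16597 and 16617 genes had at least 10 counts, fewer than in any W-hybrid Quartz-seq library.

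Among the meiosis genes, 12 of 65 passed an adjusted p under 0.05 in that test of the hybrids. Of the 12, 4 had the higher log2 fold change in the W-hybrid. These included spo11, with 29.59 TPM at 12 dpf and 13.26 TPM at 14 dpf in the Z-hybrid, and spata22, with 30.04 and 7.02 TPM. The others of the 12, beyond these 4, had the higher change in the Z-hybrid. Over all 65 genes the median log2 fold change was 0.48 in the Z-hybrid, with 42 above 0. In the W-hybrid it was 0.19, with 44 above 0. MEIOB and DMC1 had higher values at 14 dpf in both hybrids, at far lower levels in the Z-hybrid, where MEIOB measured 4.79 and 22.48 TPM and DMC1 2.09 and 8.64 TPM. In the oocyte list, 6 of 27 passed it, 3 of them with the higher log2 fold change in the W-hybrid. LHX8, with 53.47 TPM at 12 dpf and 27.96 TPM at 14 dpf in the Z-hybrid, passed it (adjusted p = 0.0283 in edgeR's quasi-likelihood test). The gene foxr1 was listed at 0 in both Z-hybrid libraries and did not pass it. In the Z-hybrid figla measured 0.52 and 0.07 TPM. With 1 Z-hybrid library at each age, the spread of Z-hybrid batches is not known.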

How the data were processed

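Germ cells of 4 W-hybrid batches, with the other libraries named above, were analysed from the tables the authors deposited. Per the submitters' processing notes, reads were processed with STAR 2.7.7a and RSEM 1.3.1 on GRCz11. The deposited expected counts are RSEM estimates, which share reads between genes and need not be whole. The deposited TPM values are scaled by the authors' software for gene length and library total. The deposited gene lengths were not used in any test. A table of the whole series by the authors was not used here. The protocol text of the records names the Smart-seq kit for every library, whereas the descriptions give Quartz-seq for the 6 libraries, and the latter were followed. Unnumbered titles were taken as replicate 1.

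Expected counts were rounded. In R 4.3.3, edgeR 4.0.16 was run on the 6 Quartz-seq libraries with TMM scaling, filterByExpr, robust quasi-likelihood fits (2 residual degrees of freedom, biological coefficient of variation 0.511) and Benjamini-Hochberg adjustment over all genes tested. Log2 CPM used a prior count of 2. The age difference, its interaction with hybrid, and, over 20 germ cell libraries, the difference between age steps were tested. DESeq2 1.42.0, other scalings, filters, library sets, thinning, a replicate block and leaving out each library were alternatives. The scripts were tested on simulated data. Depth limits low genes, and the 3 called genes had at least 46 counts in each library.

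Symbols come from a table that pairs 28988 of 32057 Ensembl identifiers, and are printed as it gives them, some in capitals. Genes named are the called genes, the 10 largest changes in each direction, up to 4 members of each list, and the genes of the study. The largest changes were taken among genes with an unadjusted p under 0.05, a mean over 5 TPM and groups that do not overlap. The list members were those of smallest unadjusted p among members whose groups do not overlap. Further list members are named to describe their list, and were chosen after their values were seen. The libraries, lists and rules were chosen with earlier results of these data known. Some genes that the rule covers are left out of the text.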

Additional observations from a re-analysis of the deposited data

Results flagged for a closer look

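For 27 named genes the change from 12 to 14 dpf differed between W- and Z-hybrid germ cells in edgeR's interaction test (adjusted p under 0.05). The values below are the W-hybrid change minus the Z-hybrid change on the log2 scale. Each rests on 1 Z-hybrid library at each age, and a value whose Z-hybrid library is near 0 depends on the prior count. Many of these genes were named for their change in the W-hybrid, which is part of each value.

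The largest positive differences were those of larp6b (6.35), PHYHIPL (6.33), KCNJ13 (5.95), zgc:162592 (5.79) and zpax2 (5.61), followed by STMN2 (4.60) and zpax1 (4.47). Of oocyte and meiosis genes, LHX8 had 2.83, spata22 2.77, buc 2.61, spo11 2.502 and rad21l1 1.83. Of blood and retinoid genes, alas2 had 3.27, RDH10 3.19 and STRA6 2.18.

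Negative differences, where the Z-hybrid change was the higher one, were those of the muscle genes ckmb (-10.75) and atp2a1 (-2.54), the study's genes spinb (-3.99) and tsga10 (-2.77), and the stress genes JUN (-4.66) and HSPA8 (-1.78). ANXA1 had -4.56, chek2 -2.15, rps27.2 -1.97, CORO1A -1.75, SUZ12 -1.61 and HDAC1 -1.58. For ckmb and atp2a1, 12-dpf replicate 2 of the W-hybrid held 121.72 and 280.42 TPM against 10.39 and 84.20 TPM in replicate 1. In the Z-hybrid, tsga10 measured 3.54 TPM at 12 dpf and 24.80 TPM at 14 dpf, and spinb 2.42 and 32.84 TPM.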

How the results depend on the processing

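The count of called genes depended on the fit. Against 3 higher and 0 lower, the counts were 45 and 16 with DESeq2, 1 and 0 with library size alone, 27 and 21 over all 20 germ cell libraries, 8 and 0 with 10 counts required in every library, 44 and 36 with every gene that had a count, 10 and 1 after thinning, and 21 and 5 with the replicate block. Leaving out each library gave 6 to 24 higher and 5 to 28 lower. Same-numbered libraries are only known to share a number, and with 2 pairs the pairing could not be established (correlation of deviations 0.131 over all genes tested and 0.402 over 9269 genes with a mean log2 CPM over 3, among which the median absolute log2 difference was 0.313 and 0.248 between same-numbered libraries and 0.336 and 0.347 between libraries of 1 age). The log2 fold changes of the 3 called genes kept their sign in every fit. The number of genes with a hybrid by age interaction, 2830, moved to 1291 with 10 counts in every library and 4250 with every gene that had a count. Genes near 0 changed sign between fits without 1 library, over which the log2 fold change lay between -0.24 and 0.36 for HORMAD1, -0.64 and 0.55 for spinb, -0.49 and 0.50 for CENPX, -0.29 and 0.12 for moto, -0.075 and 1.19 for rec8b, and -0.46 and 0.050 for PCNA. Others did so with the replicate block (spinb -0.015), library size alone (CENPX 0.0018) and thinning (CENPX 0.056). The cause of these moves was not tested. With 2 libraries at each age, small changes were not detectable at this depth and spread.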
